A study of Mus musculus with 46 samples.

Results

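The corticotropin-releasing hormone (CRH) system was followed here through 4 named genes, Crhbp, Crh, Crhr1 and Crhr2, of the 22800 genes in the count table. The members were taken by symbol, whatever their values, in all 46 cells. Each sample was a single mouse oriens-lacunosum moleculare (OLM) interneuron, a somatostatin cell of the hippocampus whose axon reaches the outer layer of the dendrites of pyramidal cells. Its cytosol was drawn into a patch pipette and sequenced. Of the cells, 23 came from mice of the Htr3a Cre driver line and 23 from mice of the Sst Cre driver line, all aged P21 to P30 (postnatal days) and all having passed quality control. In such lines Cre is driven by the gene for a serotonin receptor subunit or by the gene for somatostatin. The labels give no treatment, no reporter allele and no animal of origin. Each line was therefore 1 sample, cells of a line were not taken as replicates of it, and no test between lines was made.

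CRH is a peptide hormone and neuromodulator that acts on receptors encoded by Crhr1 and Crhr2, which signal mainly through Gs, adenylyl cyclase and cAMP. Its relatives, the urocortins, share these receptors. Crhbp encodes a secreted binding protein that holds CRH and urocortin away from the receptors, and in the forebrain it is known from somatostatin interneurons. In the hippocampus, CRH itself is known from subsets of interneurons, and its receptor from pyramidal cells.

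Assigned reads per cell ranged from 3391829 to 26136222 (median 15336981) in the Htr3a line and from 5639490 to 31386369 (median 16726879) in the Sst line. The number of genes with a read ranged from 3350 to 12693 and from 3225 to 8774. Levels are given as CPM, the count divided by the assigned reads of the cell and multiplied by 1000000, and means and differences on the log2(CPM + 1) scale. A line difference is the Sst-line mean minus the Htr3a-line mean. Its median over the 11196 genes with a mean of at least 0.5 was -0.22, and it lay between -0.36 and -0.06 under the other scalings, a pseudocount of 10, thinning and with 2 cells left out. By the log2 ratio of counts summed over a line it was 0.02. Somatostatin and GABA genes were looked at in all cells, which does not test the OLM label. Cells of the Sst line were themselves taken through Sst. Sst, Gad1 and Gad2 had reads in all 46 cells, with medians of 16414, 1063 and 832 CPM over Htr3a-line cells and 8109, 1069 and 738 CPM over Sst-line cells. In the Htr3a line Gad1 fell as low as 0.45 CPM and Gad2 as low as 1.47 CPM. Of 2 further genes of the OLM list, Chrna2 had reads in 10 Htr3a-line and 6 Sst-line cells, and Elfn1 in 18 and 15.

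Crhbp was the member that every cell carried, at levels that varied widely. The gene lies on chromosome 13, from 95431371 to 95444924 on the minus strand (GRCm38), and is protein-coding with 7 merged exon blocks. It overlaps no other annotated gene, and none of its 31-base words occurs in a transcript of another gene (0%), so its reads are not shared with a near-copy. Just upstream of its RefSeq start lies 1 copy of the CRE half-site, the letters TGACG on either strand. CREB proteins of the cAMP pathway that CRH receptors feed are known to bind such letters. The stretch (chr13:95444879-95444907, minus strand, RefSeq on GRCm38.p6) is shown for that match, which is in capitals.

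Crhbp start region: gagctggaccctCGTCAttgccacgcatt

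The match lay at position -64 from the RefSeq start and within the first exon of a longer GENCODE transcript that starts 93 bases upstream of it. The half-site occurred in 17.8% of the 32851 RefSeq windows of 250 bases upstream of a start, so the match is a common one. The full CRE (TGACGTCA, in 1.55% of windows), the TATA box (TATAAA, in 12.4%) and the E-box (CACGTG, in 6.02%), each searched on both strands, had no match in the Crhbp window. The full CRE and the half-site overlap by construction. The window of Crh was not analysed here.

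Crhbp had at least 1 read in 23 of 23 cells of each line (100%, exact Clopper-Pearson 95% interval 85.2 to 100 in each). Reads in all 46 cells were found for 448 genes, 1.96% of those in the table. In the Htr3a line, Crhbp ranged from 2.45 to 4795 CPM, with a median of 601 and quartiles of 287 and 1038 CPM. In the Sst line it ranged from 169 to 4087 CPM, with a median of 968 and quartiles of 552 and 1622 CPM. The ranges overlapped over most of their length. They parted at the low end, where 3 Htr3a-line cells lay under 100 CPM and no Sst-line cell did (0 of 23 cells, a count that still allows 13.04%). For a count of 0 the limit is taken as 3 of 23 cells, and is not a Clopper-Pearson bound. At the high end the ranges overlapped: the 4 highest Htr3a-line cells held 4795, 3425, 2120 and 1182 CPM, and the 4 highest Sst-line cells 4087, 3680, 3565 and 2915 CPM. At least 1000 CPM was reached by 7 Htr3a-line and 11 Sst-line cells.

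**Figure D1:**
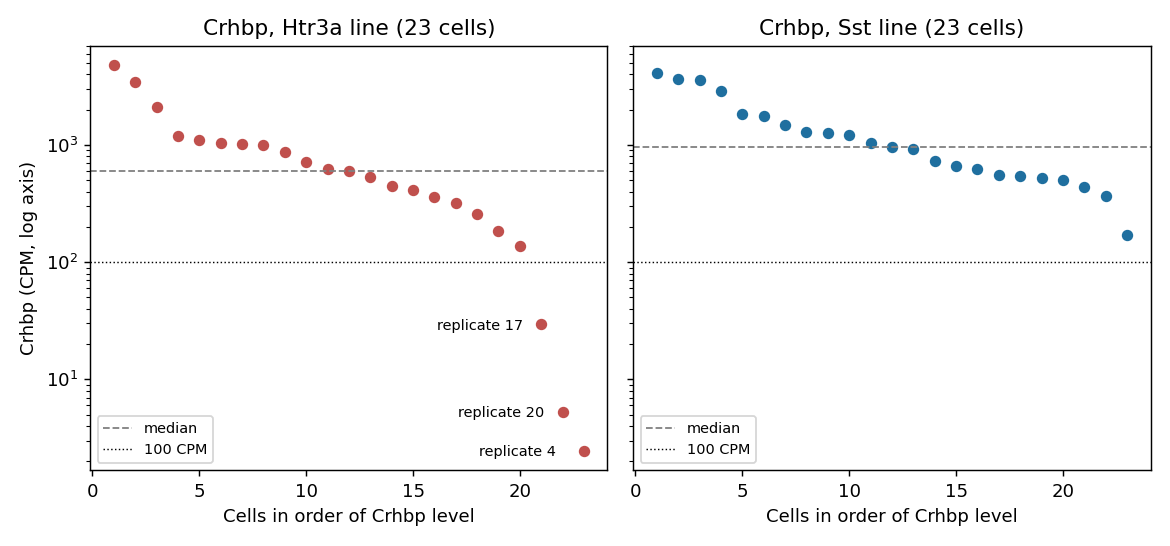
Crhbp level of each of the 46 cells (CPM, log axis), ordered within each driver line. The 3 lowest cells, at 2.45, 5.31 and 29.6 CPM, belong to the Htr3a line, and the lowest Sst-line cell is at 169 CPM.

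The mean Crhbp level on the log2(CPM + 1) scale was 8.63 ± 2.54 (SD, 23 cells) in the Htr3a line and 9.96 ± 1.17 (SD, 23 cells) in the Sst line. The difference of 1.33 was smaller than the SD of the Htr3a line. A difference of at least 1 towards the Sst line was found for 4.24% of the 11196 genes, and one of at least 1 in the other direction for 14.9%. The size of the Crhbp difference rested on a few cells. It was 0.72 when Htr3a line replicates 4 and 20 were left out, the cells under 10 CPM of Gad1, and 0.39 as the log2 ratio of summed counts (1332 CPM against 1013 CPM, exact Poisson 95% intervals 1328 to 1336 and 1009 to 1016). The Poisson intervals given here cover counting error only, and the Clopper-Pearson intervals cover only the counting of cells, taken as independent draws. The summed counts in turn leaned on high cells: Htr3a line replicate 9 gave 26.5% of the Crhbp reads of its line. Without that cell the log2 ratio of the sums was 0.76. With Sst line replicate 19 left out it was 0.22.

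The spread of Crhbp over cells was wide for its level. Among the 209 genes whose Htr3a-line mean lay within 0.5 of that of Crhbp, the median SD was 1.72, and 10 genes had a larger SD than Crhbp. With Htr3a line replicates 4 and 20 left out, the SD of Crhbp in that line was 1.61 (21 cells), the median SD of the 158 genes then at its level was 1.002, and 18 had a larger SD than Crhbp. In the Sst line the median SD of 86 such genes was 0.78, and 8 had a larger SD than Crhbp.

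Per kilobase of exon, the scale on which genes can be compared, Crhbp stood among the more abundant transcripts of these cells. Its rank among 21873 genes with a known length had a median of 118 in the Htr3a line, and ran from 3 to 3470, the last in replicate 17. In the Sst line the median rank was 64, from 6 to 696. Crhbp ranked in the first 100 genes in 11 Htr3a-line and 15 Sst-line cells. Summed over a line, the Crhbp level was 563 CPM per kb (Htr3a line) and 740 CPM per kb (Sst line). By the same measure Gad1, which encodes a GABA-synthesising enzyme, stood at 148 and 169 CPM per kb, below Crhbp in both lines. The neuropeptide genes Npy (1726 and 2509 CPM per kb) and Sst (37841 and 17465 CPM per kb) stood above it on these sums. Npy was uneven over cells, with reads in 21 Htr3a-line and 16 Sst-line cells and highest levels of 5868 and 11796 CPM. Before division by length, the median Npy level was 123 and 206 CPM, below the 601 and 968 CPM of Crhbp.

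The 3 cells with least Crhbp were not alike in their other transcripts. They are given one by one, since a set picked by its level is not a group to average. The cells just above the level of 100 CPM that picked them held 138 and 183 CPM of Crhbp among Htr3a-line cells, and 169 CPM among Sst-line cells. None of the 3 had a read of Crh, Crhr1 or Crhr2, which were read in 6, 1 and 1 of the 23 cells of their line.

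Htr3a line replicate 4 had 22 Crhbp reads (2.45 CPM) among 8969852. It held 4 reads of Gad1 (0.45 CPM) and 7 reads of Npy (0.78 CPM), and 0 reads of Elfn1, a synaptic adhesion protein of OLM cells, of the nicotinic receptor subunit gene Chrna2 and of the transcription factor gene Dlx1. Gad2, which encodes the other GABA-synthesising enzyme, was present in it at 555 CPM. Sst stood at 4545 CPM, Reln at 228 CPM and Pnoc, the nociceptin precursor, at 165 CPM. Its 7 oligodendrocyte genes summed to 13314 CPM, the highest of the 46 cells, against a median of 114 CPM in its line, and its 8 astrocyte genes to 1495 CPM, also the highest, against 89.3 CPM. Its 9 pan-neuronal genes summed to 8294 CPM against a median of 12715 CPM. The part of these markers in its Crhbp level was not tested.

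Htr3a line replicate 20, the shallowest cell, had 18 Crhbp reads (5.31 CPM) among 3391829. Sst was high in it, at 64006 CPM, while Npy was at 0.88 CPM, Gad1 at 7.08 CPM (24 reads) and Gad2 at 1.47 CPM (5 reads). It had the line's highest levels of Slc32a1, the vesicular GABA transporter (438 CPM), and of Pnoc (1626 CPM). Its oligodendrocyte sum of 114 CPM was the line median, and its pan-neuronal sum of 6346 CPM was the lowest of the line.

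Htr3a line replicate 17 combined little Crhbp with levels of Sst, Npy, Reln and both GABA-synthesising enzymes near the medians of its line. It had 522 Crhbp reads (29.6 CPM) among 17614146, with 8369 genes read against a line median of 8169. Sst was at 16384 CPM, Npy at 143 CPM, Reln at 796 CPM, Chrna2 at 99.9 CPM, Gad1 at 861 CPM and Gad2 at 887 CPM. For Sst, Npy, Reln, Gad1 and Gad2 the line medians were 16414, 123, 680, 1063 and 832 CPM. Chrna2 had a line median of 0 CPM, and Pnoc, with a line median of 21.1 CPM, had 0 reads in replicate 17. Its microglial genes summed to 2383 CPM against a line median of 448 CPM, its oligodendrocyte genes to 473 CPM against 114 CPM, and its astrocyte genes to 426 CPM against 89.3 CPM. Its pan-neuronal sum was 10740 CPM. Over the line, the Spearman rho with Crhbp was 0.06 for microglial, -0.15 for oligodendrocyte and -0.21 for astrocyte sums (23 cells). The part of these markers in the Crhbp level of replicate 17 was not tested.

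Crh, the hormone itself, was found in few cells. The gene lies on chromosome 3, from 19693401 to 19695396 on the minus strand, with 2 exon blocks. It had a read in 6 of 23 Htr3a-line cells (26.1%, Clopper-Pearson interval 10.2 to 48.4) and in 4 of 23 Sst-line cells (17.4%, 4.95 to 38.8). Reads in 1 to 11 of the 46 cells were found for 26.4% of the genes in the table. Among the Htr3a-line cells with a read, Crh stood at 220 CPM in replicate 15 (3510 reads), 99.3 CPM in replicate 23, 60.4 CPM in replicate 22, 34.9 CPM in replicate 5, 24.8 CPM in replicate 19 and 0.060 CPM in replicate 16, from 1 read. In the Sst line it stood at 99.6 CPM in replicate 11 (1672 reads), 48.2 CPM in replicate 10, 0.18 CPM in replicate 7, from 3 reads, and 0.11 CPM in replicate 23, from 2 reads. Cells thus either held at least 311 Crh reads, in 5 Htr3a-line and 2 Sst-line cells, or at most 3.

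Summed over a line, Crh took 18.7 CPM (Poisson interval 18.2 to 19.2) over Htr3a-line cells and 6.33 CPM (6.08 to 6.60) over Sst-line cells, and 1 cell gave 54.5% and 71.5% of those reads. The mean difference of -0.77 was smaller than the difference of at least 1 that was counted. The log2 ratio of the sums was -1.42, but -0.43 with Htr3a line replicate 15 left out and -2.77 with Sst line replicate 11 left out. Per kilobase, the summed level of Crh was 14.2 CPM over Htr3a-line and 4.80 CPM over Sst-line cells, below the 563 and 740 CPM of Crhbp.

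In each of the 7 cells with at least 311 Crh reads, the binding protein was the more abundant transcript per kilobase. The ratio of the Crhbp to the Crh level per kilobase was 2.22 in Htr3a line replicate 22, where Crhbp was at 183 CPM, and 4.57 in replicate 23. It was 9.44 in replicate 5, 11.4 in replicate 15, where Crhbp reached 3425 CPM, and 17.8 in replicate 19. In the Sst line it was 9.49 in replicate 10 and 9.52 in replicate 11. These 7 Crh cells held from 183 to 3425 CPM of Crhbp.

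**Figure D2:**
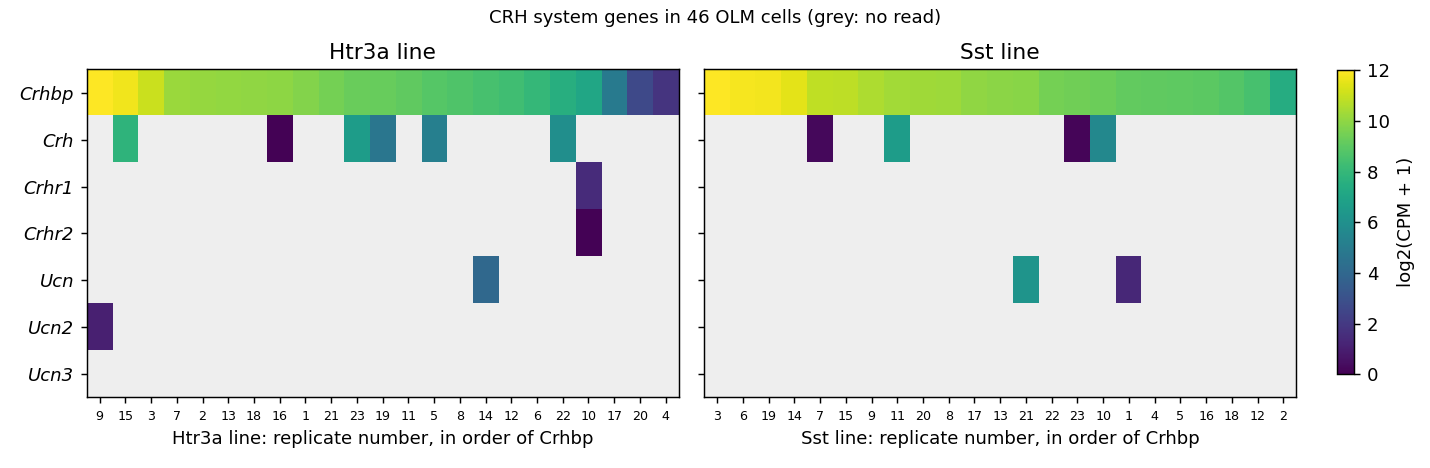
Level of the 4 members and of the urocortin genes in each of the 46 cells, on the log2(CPM + 1) scale, with cells in the order of their Crhbp level within each line. Crhbp fills every cell, Crh appears in 10 cells, and Crhr1 and Crhr2 appear in 1 Htr3a-line cell.

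The urocortin genes, which encode the other ligands of these receptors, were rarer still. Ucn had reads in 1 Htr3a-line cell (replicate 14, 410 reads, 15.7 CPM) and in 2 Sst-line cells (replicate 21, 1226 reads, 73.3 CPM, and replicate 1, 42 reads, 1.48 CPM). None of these 3 cells had a read of Crh, which was read in 6 of 23 Htr3a-line and 4 of 23 Sst-line cells. Ucn2 had 21 reads in 1 cell, Htr3a line replicate 9 (1.09 CPM), the cell with most Crhbp. Ucn3 had 0 reads in all 46 cells, as did 29.7% of the genes in the table.

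The CRH receptors were read in 1 cell. Crhr1 (chromosome 11, 104132855 to 104175523, plus strand, 13 exon blocks) encodes the receptor with the higher affinity for CRH. It had 33 reads in Htr3a line replicate 10 (1.77 CPM), a share of 4.35% of that line (Clopper-Pearson interval 0.11 to 21.9), and none in the Sst line (0 of 23 cells, a count that still allows 13.04% of cells with a read). Crhr2 (chromosome 6, 55090049 to 55133016, minus strand, 12 exon blocks) encodes the other receptor, which urocortins also bind. It had 1 read, in the same cell (0.054 CPM). That cell had the most genes read of the 46, 12693, and the fourth lowest Crhbp level, 138 CPM. Its 8 GABAergic genes summed to 345 CPM, the lowest of the 46 cells, against a line median of 4025 CPM. Its Sst level was 39594 CPM against a line median of 16414 CPM. Its glutamatergic genes summed to 190 CPM against a median of 41.5 CPM, and its astrocyte genes to 258 CPM against 89.3 CPM. Cells without a receptor read held higher sums, such as 270 CPM of glutamatergic genes in Sst line replicate 16 and 1495 CPM of astrocyte genes in Htr3a line replicate 4. The part of these markers in its receptor reads was not tested. Reads in exactly 1 cell were found for 7.86% of the genes in the table. In the other 45 cells neither receptor was detectable at depths of 3391829 to 31386369 reads. Per kilobase, the summed Crhr1 level in the Htr3a line was 0.0390 CPM.

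The genes whose level over cells was most like that of Crhbp were sought within each line, so that the line difference could not produce the likeness. Likeness is the smaller of the Spearman rhos over 23 Htr3a-line and over 23 Sst-line cells, for the 6057 genes with reads in at least 12 cells of each line. The labels give all cells 1 protocol, and the cells differ in depth, in genes read and in the summed level of neuronal genes. These values are descriptions and carry no p-value. A rho of at least 0.5 in both lines was found for 4 genes, 0.066% of those compared, and a rho of -0.5 or lower in both for 0 genes. In the Htr3a line alone 284 genes reached 0.5, and in the Sst line alone 33. The median rho over all genes was 0.14 in the Htr3a line and -0.00099 in the Sst line.

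**Figure D3:**
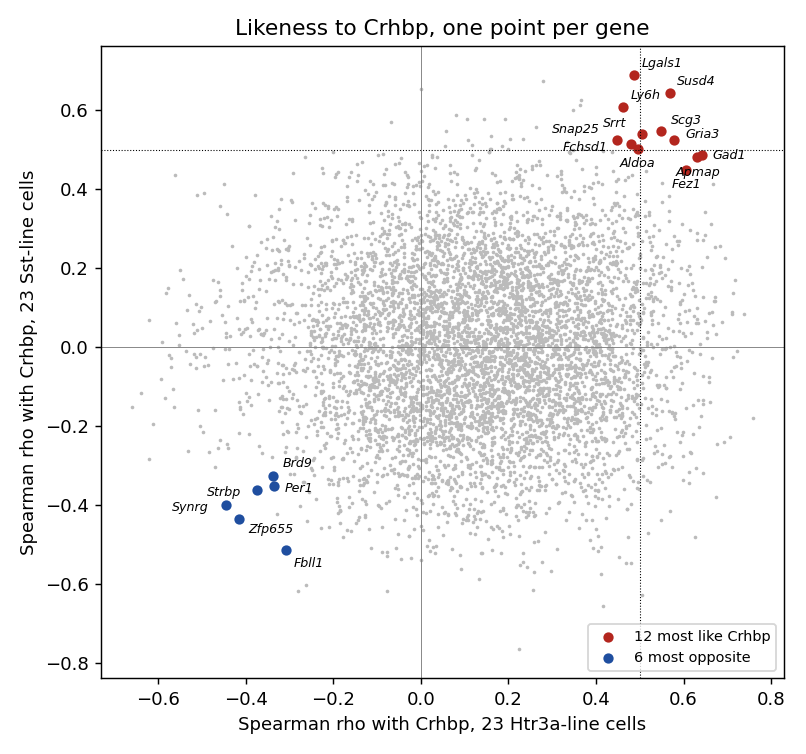
Spearman rho with Crhbp over the 23 Htr3a-line cells (x axis) and over the 23 Sst-line cells (y axis), 1 point for each of 6057 genes, with the named genes labelled. Susd4, Scg3, Gria3 and Srrt are the 4 genes at 0.5 or above on both axes.

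Susd4, which encodes a membrane protein with complement-control domains, headed the list, with a rho of 0.57 in the Htr3a line and 0.64 in the Sst line. It ranged from 0 to 249 CPM with a median of 69.6 CPM in the Htr3a line, and from 0 to 215 CPM with a median of 26.5 CPM in the Sst line, where 15 of 23 cells had a read. Scg3, a granin of the secretory granules in which neuropeptides are stored, followed with 0.55 in both lines. It ranged from 0 to 426 CPM (median 97.6) and from 0 to 460 CPM (median 93.7).

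Gria3, an AMPA receptor subunit gene, had rhos of 0.58 and 0.53, with medians of 183 and 173 CPM and reads in 22 Htr3a-line and 21 Sst-line cells. Srrt, which encodes a partner of the nuclear cap-binding complex, had rhos of 0.51 and 0.54 at medians of 49.5 and 12.9 CPM. In Htr3a line replicates 4 and 20, the cells with least Crhbp, Susd4 and Srrt had no read and Scg3 stood at 4.35 and 0.59 CPM, but Gria3 was at 133 and 121 CPM. In replicate 17, with the next lowest Crhbp, the same genes were not low: Susd4 was at 126 CPM, Scg3 at 97.6 CPM, Gria3 at 179 CPM and Srrt at 56.7 CPM.

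**Figure D4:**
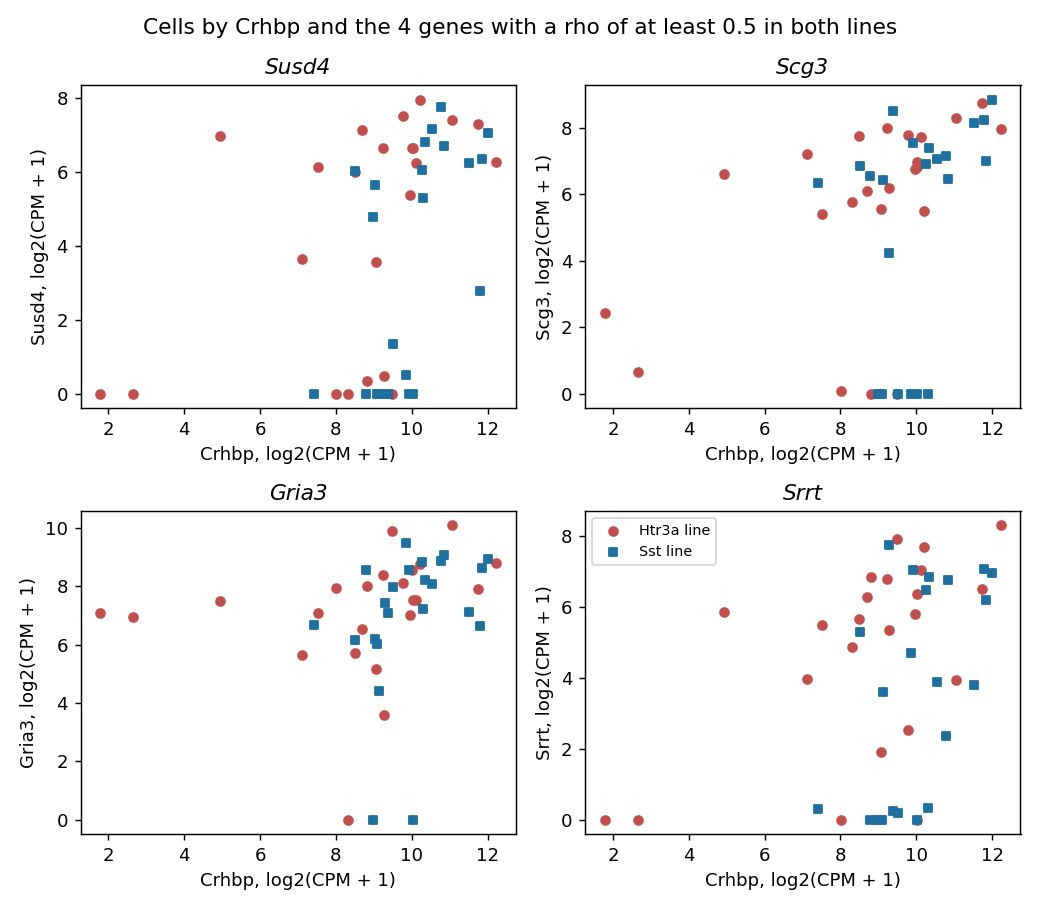
Level of Susd4, Scg3, Gria3 and Srrt against that of Crhbp, both on the log2(CPM + 1) scale, 1 point per cell and a colour per line. The rhos lie between 0.51 and 0.64, and cells without a read of Susd4, Scg3 or Srrt occur at many Crhbp levels.

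Below these came Aldoa, a glycolytic enzyme gene (0.495 and 0.501), Lgals1, which encodes galectin-1 (0.49 and 0.69), and Gad1 (0.64 and 0.49). Apmap had 0.63 and 0.48, and Fchsd1, which encodes an F-BAR domain protein, 0.48 and 0.51. Ly6h, a GPI-anchored protein gene, had 0.46 and 0.61. Snap25, a SNARE of synaptic vesicle release, had 0.45 and 0.52, and Fez1, an adaptor of axonal transport, 0.60 and 0.45. Of the 31-base words of Fchsd1, 25.9% occur in transcripts of other genes, and of those of Aldoa 13.5%, so their counts are less certain than those of Susd4 and Scg3 (0% each).

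The summed level of the 9 pan-neuronal genes, of which Snap25 is 1, had a rho with Crhbp of 0.48 in the Htr3a line and 0.53 in the Sst line. The genes of that list differed: Snap25 had a rho above 0.4 in both lines, whereas Syt1 had 0.55 and -0.13 and Stmn3 -0.27 and 0.48. The rho was 0.32 and -0.05 for total reads, and 0.08 and -0.09 for genes read. With the pan-neuronal sum held, the partial rho was 0.59 and 0.54 for Gria3, 0.47 and 0.58 for Susd4, 0.43 and 0.50 for Srrt, 0.43 and 0.28 for Scg3, and 0.16 and 0.36 for Aldoa. Without Htr3a line replicates 4 and 20, 1 gene reached 0.5 in both lines, Gria3. By Pearson r, however, Gria3 had 0.22 and 0.32, the lowest of the 4 genes in each line. With TMMwsp factors, poscounts size factors or the deposited normalized table, it did not reach 0.5 in both lines. The sums of oligodendrocyte genes (-0.15 and -0.15) and astrocyte genes (-0.21 and -0.16) had weak negative rhos, and that of glutamatergic genes had -0.31 and 0.02.

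The summed level of the 8 GABAergic genes had a rho with Crhbp of 0.54 in the Htr3a line and 0.35 in the Sst line, and single OLM and GABA genes differed. Npy had rhos of 0.33 and 0.52, Elfn1 0.48 and 0.32, and Dlx1 0.36 and 0.33. Sst, the most abundant peptide transcript of these cells, had -0.06 in the Htr3a line and 0.37 in the Sst line. Gad2 (0.65 and 0.13) and Reln (0.56 and 0.18) had a high rho in the Htr3a line, and a test of the difference between lines was not made. Pnoc had -0.16 and 0.02.

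At the other end stood Zfp655, a zinc-finger gene (-0.42 and -0.44), Synrg, an adaptor of vesicle traffic at the Golgi (-0.45 and -0.40), Strbp, an RNA-binding protein gene (-0.37 and -0.36), Per1, a circadian clock gene induced by corticosteroids (-0.34 and -0.35), Brd9 (-0.34 and -0.33) and Fbll1 (-0.31 and -0.52). None reached -0.5 in both lines.

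The genes through which CRH receptors act, and the stress hormone and peptide-processing genes beside them, were compared between lines in 6 lists of 64 genes. Of the 60 with a mean of at least 0.5, 1 was higher by at least 1 in the Sst line (1.67%) and 11 were lower (18.3%). Over all 11196 genes those shares were 4.24% and 14.9%. The median difference of the 60 genes was -0.20, beside -0.22 for all genes, so their shares and median lay close to those of all genes. By summed counts the split turned: 6 of the 60 genes were higher by at least 1 and 3 were lower, beside 9.83% and 10.7% of all genes. Lower by both measures were Pcsk1, Pde8b and Prkar2b, and higher by both was Sgk1.

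The Gs, cAMP and protein kinase A list had 19 genes tested of 21, with a median of -0.44. Of these 0 were higher and 3 lower by at least 1: Crem, a cAMP-responsive transcription factor (-1.43), Adcy3, an adenylyl cyclase (-1.32), and Prkar2b, a regulatory subunit of the kinase (-1.04). Prkar2b, with reads in 6 and 3 cells, lies outside the rule for named genes and was chosen after its values were seen. By summed counts Crem stood at -0.71 and Adcy3 at -0.37. Adcy6 stood at 0.70 (1.84 by summed counts) and Adcy1 at -0.62 (-0.0081).

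Of the 8 cAMP phosphodiesterase genes, whose enzymes break cAMP down, 0 were higher and 3 lower, with a median of 0.03. Those were Pde8b (-1.77), Pde1b (-1.50) and Pde10a (-1.16), and Pde7a stood at 0.53. By summed counts Pde8b stood at -1.22, Pde1b at -0.36, Pde10a at -0.32 and Pde7a at 1.48. Pde1b had reads in 19 Htr3a-line and 11 Sst-line cells. The Gq and phospholipase C list had 8 genes tested of 9 and a median of -0.34, with Plcb4 (-1.28, and -0.27 by summed counts) and Prkce (-1.02, and -0.74) lower and none higher.

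Among the receptor kinases, arrestins and scaffolds, 8 of 9 were tested, the median was 0.01 and 1 was lower, the scaffold gene Magi2 (-1.64). Its difference was 0.01 by summed counts, of either sign when single cells were left out. Arrb2, which encodes an arrestin that ends receptor signalling, stood at 0.98 (0.67 by summed counts) and Adrbk1, a receptor kinase gene, at 0.81 (0.62).

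The 8 corticosteroid receptors and targets had a median of -0.17, with 1 higher and 1 lower. Sgk1, a kinase gene induced by glucocorticoids, was higher in the Sst line by 1.42 (1.05 by summed counts), with reads in 17 cells of each line. Nr3c1, the glucocorticoid receptor gene, was lower by that measure (-1.32), with reads in 14 Htr3a-line and 8 Sst-line cells. By summed counts Nr3c1 stood at -0.90, and at -2.15 without Sst line replicate 4.

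The 9 peptide-processing genes had a median of 0.17, with 0 higher and 1 lower. Pcsk1, a convertase that cuts prohormones, had a difference of -2.90 (-2.76 by summed counts), with reads in 16 Htr3a-line and 5 Sst-line cells. The granin genes Chgb (0.89, and 0.22 by summed counts) and Scg2 (0.67, and 0.18) stood above 0, and Pcsk2 stood at -0.90 (-0.36).

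**Figure D5:**
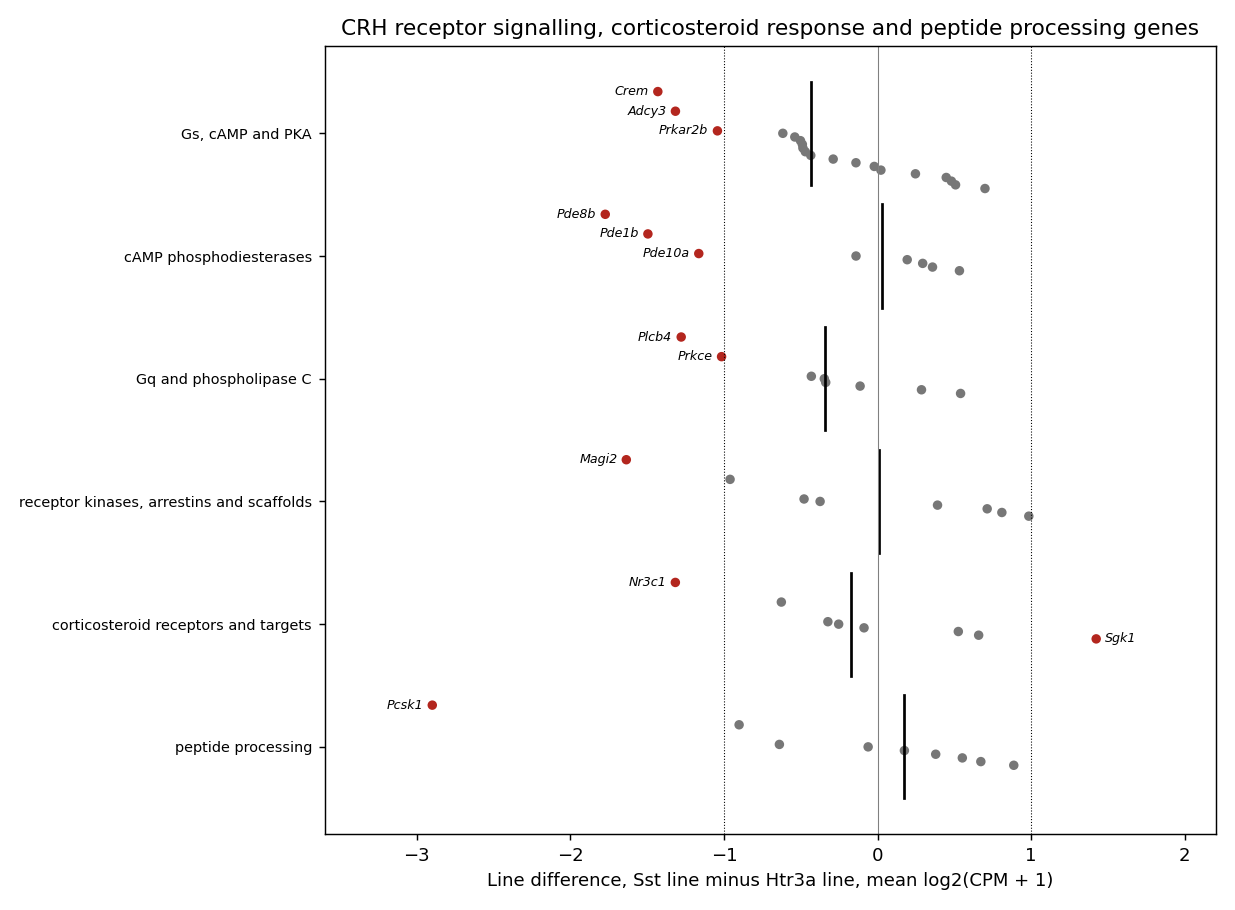
Line difference (Sst-line mean minus Htr3a-line mean, log2(CPM + 1) scale) of each tested gene of the 6 lists, with the lines at -1 and 1 that were counted. One gene, Sgk1, lies above 1 and 11 lie below -1, Pcsk1 lowest at -2.90.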

How the data were processed

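The deposited table holds raw counts of reads per gene and cell. The authors used Trimmomatic, STAR and featureCounts with GRCm38, per the submitters' processing notes. Versions, gene annotation and strand option were not given in the sources used here. A second deposited table holds normalized values, a linear signal equal to the authors' counts divided by 1 factor per cell, used as an alternative. The labels mention no molecular identifiers, and amplified copies of a molecule may each have been counted.

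Counts were scaled to 1000000 per cell, without a count model, with Python 3.11.15, numpy 2.4.6, pandas 2.3.3 and scipy 1.17.1. A pseudocount of 1 was added before taking log2. Lines given inside the table matched the labels in 46 of 46 cells. Gene lengths are from GENCODE M21. Calculations were tested on simulated data.

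Members and lists were chosen with earlier results of these data known. Named genes are the members, urocortins, the 12 most and 6 least like Crhbp, up to 4 per pathway list with the largest differences (reads required in 12 or more cells), and OLM and GABA genes in low cells. Some genes that this rule takes are left out of the text. Predicted genes were left out of the likeness names. Alternatives included scaling with edgeR 4.0.16 and DESeq2 1.42.0.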

Additional observations from a re-analysis of the deposited data

How the results depend on the processing

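The Crhbp difference kept its sign in every setting run, from 0.39 (summed counts) to 1.36 (deposited normalized table), and from 1.02 to 1.49 with single cells left out. It was 1.09 after thinning to 5000000 reads and 1.17 with a pseudocount of 10. Thinning left out Htr3a line replicate 20, which had 3391829 reads and 5.31 CPM of Crhbp, so its values differ in cells as well as in depth. The cells under 100 CPM of Crhbp numbered 3 or 4 in the Htr3a line and 0 in the Sst line over the scalings. With at least 10 CPM asked for, 0 Htr3a-line cells held Crhr1 and 0 held Crhr2. Crhr2 was also in 0 with at least 5 reads or after thinning.

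The number of genes that followed Crhbp in both lines depended on the setting. It was 7 by Pearson r, 7 with TMMwsp factors, 7 with the deposited normalized table and 9 with poscounts size factors. It was 1 without the cells under 10 CPM of Gad1 and 8 with the number of genes read held. Among the 1911 genes with reads in at least 20 cells of each line it was 1, Gria3. That filter left out Susd4 (reads in 18 Htr3a-line and 15 Sst-line cells), Scg3 (21 and 16) and Srrt (19 and 18) whatever their rho. The fall in number there is thus fixed by the filter and shows no change in rho. Of the 4 genes, Pearson r kept Srrt, poscounts kept Scg3, the deposited table kept Scg3 and Susd4, and TMMwsp kept Scg3, Srrt and Susd4. Gria3 was kept by none of these settings. The number ran from 2 to 7 with single cells left out: 2 without Htr3a line replicate 15 or Sst line replicate 3, and 7 without Htr3a line replicate 22 or Sst line replicate 18. TMMwsp factors and the partial rhos were chosen after seeing the data. The cause was not tested.

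Pathway genes higher by at least 1 in the Sst line numbered 2 with poscounts (beside 4.87% of all genes), 2 with the deposited table (4.61%), 0 with a pseudocount of 10 (0.795%) and 6 by summed counts (9.83%), and 1 to 3 with single cells left out. Those lower numbered 1 with a pseudocount of 10 (1.65%), which shrinks low genes by construction, 3 by summed counts (10.7%), and 9 to 13 with single cells left out. Of the 24 named pathway genes, 5 changed sign by summed counts, an alternative chosen after seeing the data: Magi2 (0.0060), Grk6 (0.50), Prkca (0.46), Hsd11b1 (0.10) and Fkbp4 (-0.03). None changed sign under the other scalings, thinning, a pseudocount of 10, without the cells under 10 CPM of Gad1 or with single cells left out. No paired analysis was possible because replicate numbers here follow accession order, each line is 1 sample and no test was made.

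A count of 0 limits cells with a read, not cells that express a gene. Pipette samples of 1 cell do not separate a missed transcript from an absent one.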

Other observations

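Under other scalings a block of overlapping genes joined those that followed Crhbp. Snrpn, a splicing protein gene of an imprinted locus, had rhos of 0.51 in the Htr3a line and 0.45 in the Sst line, and Snurf, which overlaps it, had 0.57 and 0.38. Snrpn reached 0.5 in both lines by Pearson r, with TMMwsp factors and with the deposited normalized table. The 2 genes share part of their locus and the counting of such reads is not stated, so they are given as 1 signal. Snrpn and Snurf were chosen after their values were seen.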
